A study of Mus musculus with 2 samples.

Results

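The 9 genes described here belong to the early inflammatory response: the ligand genes Il1a, Il1b, Il6, Tnf, Il10 and Osm, the interleukin-1 brakes Il1rn and Il1r2, and the prostaglandin synthase gene Ptgs2. They were chosen by symbol and not by a measured value, though earlier results of these data were known. All 9 were found, among 32285 features in each matrix. Single-cell RNA-Seq was performed on mitral valves of 12-week-old mice, with 1 library from WT (Fbn1+/+) littermates and 1 from Fbn1 mgR/mgR mice. The mgR allele is hypomorphic in every cell of the animal, so that homozygotes make less fibrillin-1, the microfibril protein altered in Marfan syndrome. Neither library was labelled with a treatment, and cells of both were released from the leaflets with collagenase and elastase and sorted for viability. The study gives an n for this experiment, but how animals were pooled or divided among the libraries was not given in the sources used here, and cells carry no animal label.

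After filtering there were 875 WT cells with a median of 5033 UMIs (unique molecular identifiers, the counted RNA molecules) and 3438 mgR cells with a median of 7370 UMIs. The libraries shared 2 of all barcodes and 0 of the kept cells. With 1 library per genotype no difference had a replicate check, so no test was made, and each interval in parentheses is a 95% interval that covers counting error only. The methods state that male mice were compared, but UMIs of Xist without Y-linked UMIs were present in 246 WT and 2091 mgR cells, and Y-linked UMIs without Xist in 337 and 724 cells. The mix of these kinds of cell differed between the libraries, and values within each kind are given beside the results. The sum of 10 dissociation stress genes (Fos, Jun, Hspa1a and others) was 5842 CPM (UMIs of a gene per 1000000 UMIs of the class) in WT macrophages and 4523 CPM in mgR macrophages, and 6358 and 6945 CPM in fibroblasts. Its part in the results was not tested.

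Interleukin-1 alpha and interleukin-1 beta signal through the same receptor. The receptor antagonist encoded by Il1rn occupies that receptor without signaling, and the decoy receptor encoded by Il1r2 binds the ligands without passing the signal on. TNF and interleukin-6 are the other classical early cytokines of macrophages, oncostatin M (Osm) belongs to the interleukin-6 family and acts on fibroblasts, interleukin-10 restrains macrophage activation, and Ptgs2 encodes the inducible cyclooxygenase that starts prostaglandin synthesis. In valves such genes are studied because resident and recruited macrophages exchange signals with the fibroblasts that make the matrix.

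Positions refer to GRCm38. Il1a (ENSMUSG00000027399, 129299610 to 129309972), Il1b (ENSMUSG00000027398, 129364570 to 129371139) and Il1rn (ENSMUSG00000026981, 24336853 to 24351494) lie on chromosome 2, the first pair on the minus strand. Il10 (131019845 to 131024974), Il1r2 (40074079 to 40125231) and Ptgs2 (150100031 to 150108227) lie on chromosome 1, Il6 on chromosome 5 (30013114 to 30019981), Osm on chromosome 11 (4236420 to 4241026) and Tnf on chromosome 17 (35199381 to 35202007). All 9 are annotated as protein coding. Il1r2 is overlapped by Gm37347 on its own strand, so its counts are uncertain, while Il1a and Il1b are overlapped only by genes of the opposite strand (Gm14023 and Il1bos).

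Because Il1a, Il1b, Il1rn and Ptgs2 were lower together in mgR macrophages and Tnf much less so, the 250 bases before the annotated start of these 5 genes are shown, from RefSeq on GRCm38.p6. RefSeq promoter entries were at hand for 7 of the 9 genes (not for Il10 and Osm). Capitals mark matches to any of 4 motifs searched on both strands: AP-1 (TGANTCA), NF-kB (GGGA, then 4 bases of any kind, then CC), CRE (TGACGTCA) and C/EBP (TTGCNNAA). For Il1rn the most upstream of 3 annotated starts is shown.
Il1a, chr2:129309973-129310222, minus strand: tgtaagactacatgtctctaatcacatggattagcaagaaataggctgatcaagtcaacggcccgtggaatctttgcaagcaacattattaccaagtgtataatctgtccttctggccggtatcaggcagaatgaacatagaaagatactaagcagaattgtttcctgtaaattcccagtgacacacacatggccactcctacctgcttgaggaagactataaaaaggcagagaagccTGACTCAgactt
Il1b, chr2:129371140-129371389, minus strand: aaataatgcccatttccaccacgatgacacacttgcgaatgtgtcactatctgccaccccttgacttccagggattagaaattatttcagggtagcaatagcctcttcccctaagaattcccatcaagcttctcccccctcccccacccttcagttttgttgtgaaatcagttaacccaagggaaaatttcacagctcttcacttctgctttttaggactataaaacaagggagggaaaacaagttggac
Il1rn, chr2:24336610-24336859, plus strand: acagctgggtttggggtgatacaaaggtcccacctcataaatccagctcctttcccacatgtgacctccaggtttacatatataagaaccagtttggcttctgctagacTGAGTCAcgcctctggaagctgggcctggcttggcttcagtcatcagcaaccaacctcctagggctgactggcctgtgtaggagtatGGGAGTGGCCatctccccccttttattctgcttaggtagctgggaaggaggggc
Ptgs2, chr1:150099781-150100030, plus strand: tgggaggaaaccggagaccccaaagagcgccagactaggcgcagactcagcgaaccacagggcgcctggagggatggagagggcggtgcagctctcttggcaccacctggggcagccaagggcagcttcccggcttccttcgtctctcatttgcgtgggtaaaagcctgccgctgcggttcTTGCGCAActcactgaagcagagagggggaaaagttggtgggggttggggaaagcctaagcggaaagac
Tnf, chr17:35202008-35202257, minus strand: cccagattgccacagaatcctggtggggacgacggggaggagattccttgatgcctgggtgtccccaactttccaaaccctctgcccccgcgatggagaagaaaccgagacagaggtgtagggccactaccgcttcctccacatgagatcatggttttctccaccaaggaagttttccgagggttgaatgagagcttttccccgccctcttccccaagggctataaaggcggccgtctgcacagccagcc

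Il1a held an AP-1 match 12 to 6 bases before its start. Il1rn held an AP-1 match (141 to 135 bases before) and an NF-kB match (54 to 45 bases before), and Ptgs2 held a C/EBP match (69 to 62 bases before). Il1b, Tnf and Il1r2 held none of these letters in this window, and Il6 held AP-1, C/EBP and a pair of overlapping NF-kB matches. Among 32851 RefSeq promoters of the same length, 6.75% held the AP-1 letters, 17.6% the NF-kB letters, 1.55% the CRE letters and 9.56% the C/EBP letters. The matches describe sequence only, and no motif was found in all of Il1a, Il1b, Il1rn and Ptgs2.

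Cells were assigned by marker UMIs. Macrophages were cells with at least 10 UMIs of C1qa, C1qb and C1qc (222 WT and 1537 mgR cells), fibroblasts with at least 10 UMIs of Col1a2, Col3a1 and Dcn (350 and 1179), dendritic cells with at least 2 UMIs of Cd209a (31 and 73), and neutrophils with at least 10 UMIs of S100a8 and S100a9 (17 and 38). Cells that met more than 1 of these rules (7 and 50) were kept apart. Independent markers were higher inside each class than in the other cells of the same library, with Csf1r at 816 and 845 CPM in macrophages, Lum at 1845 and 1591 CPM in fibroblasts, H2-Ab1 at 12954 and 12952 CPM in dendritic cells, and Retnlg at 24452 and 19006 CPM in neutrophils. The fibroblast rule also took in cells with endothelial transcripts: 21 WT cells and 277 mgR cells also had at least 5 UMIs of Pecam1, Cdh5 and Egfl7.

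Most of these genes belonged to macrophages. Macrophages held 94.7% of all Tnf UMIs of the WT library and 96.0% of those of the mgR library, 96.1% and 96.9% for Il10, 91.5% and 94.4% for Il1a, 88.6% and 90.9% for Osm, and 87.3% and 82.8% for Il1rn. Il1b was divided, with 45.5% and 44.6% in macrophages and 32.8% and 24.0% in dendritic cells, although dendritic cells were 3.54% and 2.12% of cells. Dendritic cells held the largest share of Il1r2 (64.3% and 42.9%), with 12.9% and 9.57% in neutrophils and 5.24% and 17.3% in macrophages. In CPM, Il1r2 was at 603 (397 to 877) in WT neutrophils and 499.9 (419 to 592) in WT dendritic cells. In the mgR library neutrophils were higher, at 1017 (810 to 1261) against 473 (426 to 524). Ptgs2 and Il6 were shared by macrophages (34.3% and 34.5% of Ptgs2, 32.4% and 48.5% of Il6) and fibroblasts (34.1% and 44.9%, 41.4% and 38.0%).

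**Figure D1:**
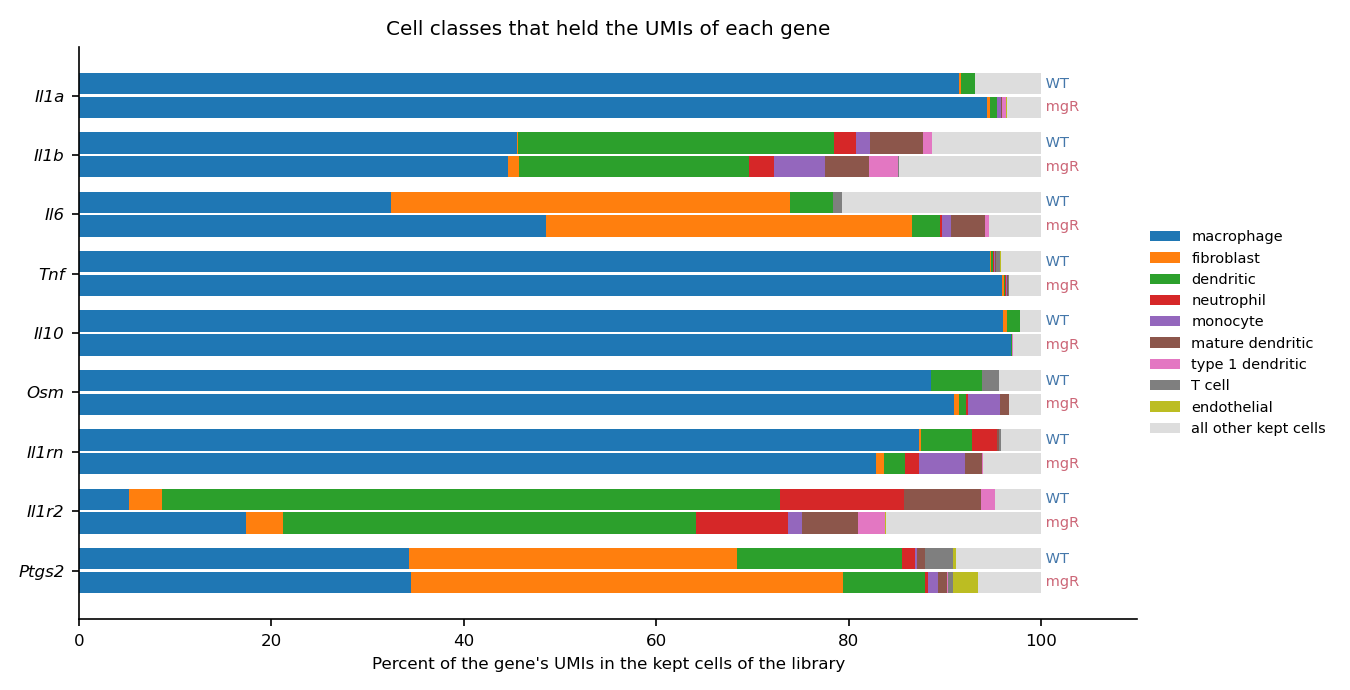
Stacked bars give, for each gene and library, the percent of its UMIs in kept cells that fell in each cell class. Tnf, Il10, Il1a, Osm and Il1rn had 82.8% or more of their UMIs in macrophages in both libraries, while Il1b, Il1r2, Il6 and Ptgs2 were spread over several classes.

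Over all kept cells, where the share of macrophages differed (25.4% of WT and 44.7% of mgR cells), Tnf was 650.1 and 755 CPM, a ratio of mgR to WT of 1.16 (1.12 to 1.21), and Osm had a ratio of 1.64 (1.35 to 2.01). Il1b had a ratio of 0.688 (0.668 to 0.708) and Ptgs2 of 0.651 (0.596 to 0.711). These sums mix the number of cells of a type with the level per cell, so the values below are within classes. The order of the classes is clearest for Il1b: in the WT library dendritic cells (7036 CPM) lay above neutrophils (2948 CPM), macrophages (1859 CPM) and fibroblasts (3.24 CPM), each beyond counting error. In the mgR library neutrophils (7340 CPM, 6764 to 7952) and dendritic cells (7061 CPM, 6876 to 7249) did not differ beyond counting error, and macrophages (769 CPM) and fibroblasts (33.1 CPM) followed.

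**Figure D2:**
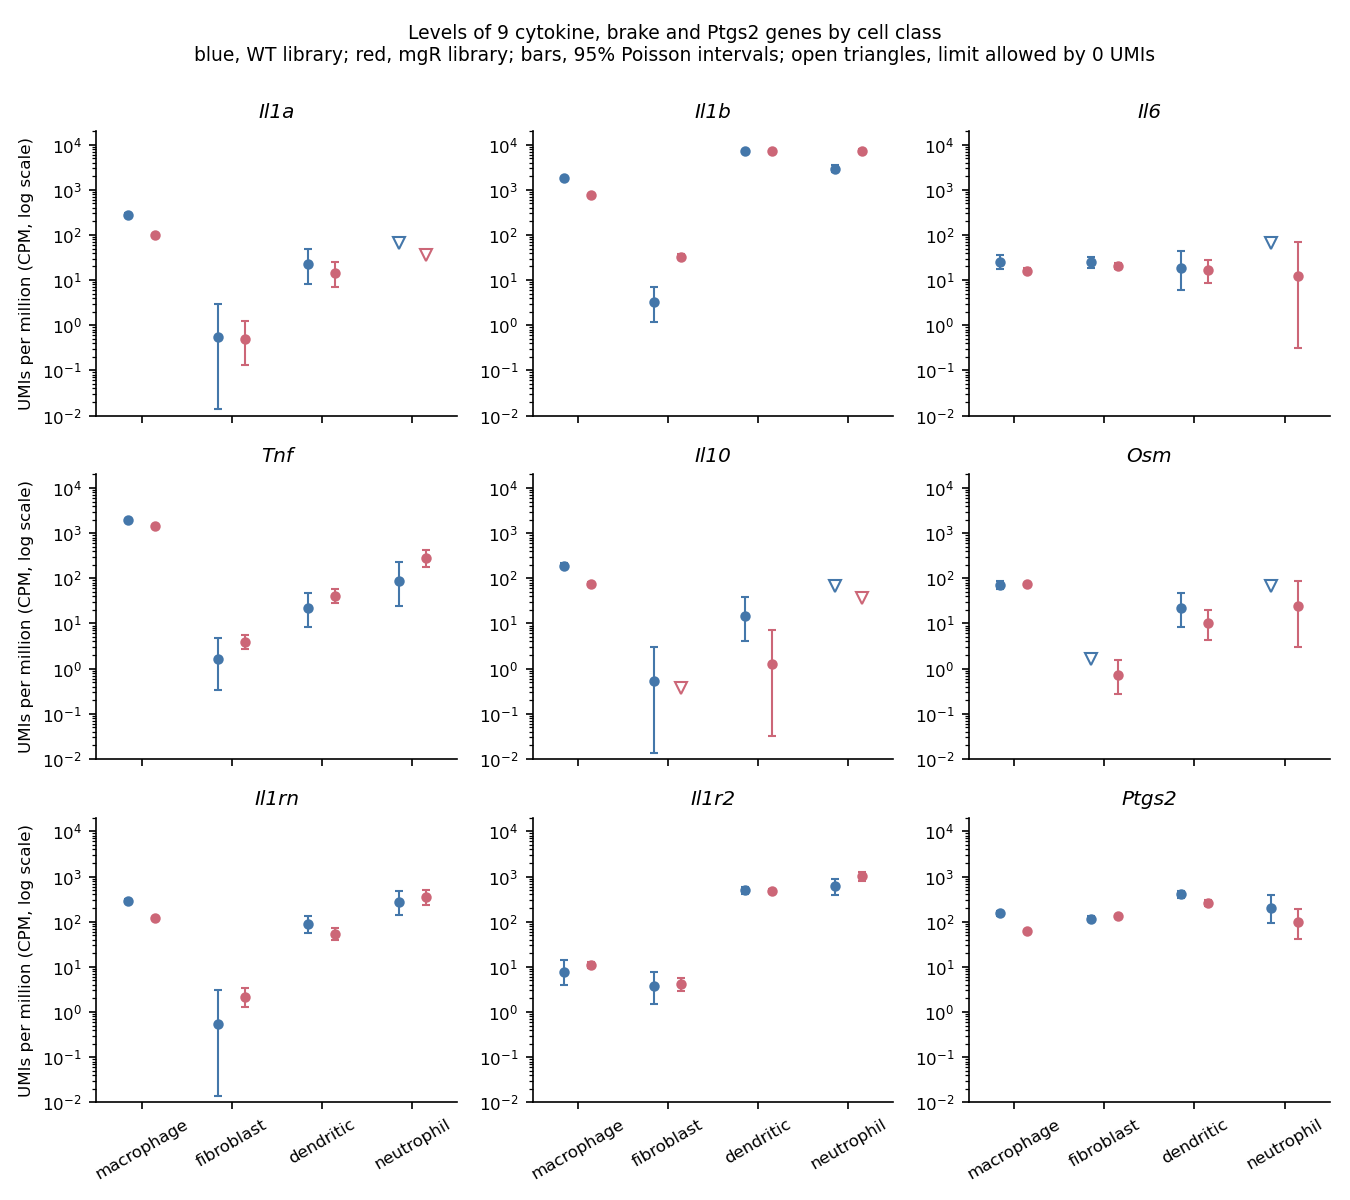
Each panel gives the level of a gene in CPM (log axis) in 4 cell classes of the WT (blue) and mgR (red) libraries, with 95% Poisson intervals and open triangles at the limit that 0 UMIs allows. The blue points lie above the red ones for Il1a, Il1b, Tnf, Il10, Il1rn and Ptgs2 in macrophages, and Il1b in neutrophils shows the opposite.

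In macrophages the interleukin-1 ligands, Il10, Il1rn and Ptgs2 were lower in the mgR library than in the WT library, and Osm was at nearly the same level. All 9 genes reached 10 UMIs over both libraries. A CPM ratio of at least 1.5-fold higher was reached by 0 of them and by 17.3% of all 11979 genes measured in macrophages. A ratio at least 1.5-fold lower was reached by 6 (Il1a, Il1b, Il6, Il10, Il1rn and Ptgs2) and by 9.69% of all genes. The median log2 ratio was -1.22 over the 9 genes and 0.098 over all genes measured.

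Among the ligands, Il1a had 272 CPM in WT cells (386 UMIs) against 98.5 CPM in mgR cells (1323 UMIs), a ratio of 0.362 (0.323 to 0.406). Il1b had 1859 CPM in WT cells (2634 UMIs) against 769 CPM in mgR cells (10329 UMIs), a ratio of 0.414 (0.396 to 0.432). Both interleukin-1 ligands were thus lower in mgR macrophages by similar factors. Tnf had 1989 CPM in WT cells (2817 UMIs) against 1440 CPM in mgR cells (19331 UMIs), a ratio of 0.724 (0.696 to 0.753), beyond counting error but short of 1.5-fold. Il6, with 25.4 CPM from 36 UMIs and 16.2 CPM from 217 UMIs, had a ratio of 0.636 (0.445 to 0.932). The Il6 ratio rests on few cells, since 10 WT cells held 80.6% of its UMIs. Without the 10 cells of each library that held most Il6 UMIs the ratio was 1.94, in the opposite direction. That step took 10 of the 17 WT but 10 of the 93 mgR macrophages with an Il6 UMI. It removed 80.6% of the WT and 37.8% of the mgR UMIs, so it cannot decide the direction. Osm, at 71.3 CPM (101 UMIs) and 73.9 CPM (993 UMIs), had a ratio of 1.04 (0.844 to 1.29), within counting error.

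The anti-inflammatory genes were lower as well. Il10 had 191 CPM in WT cells (270 UMIs) against 76.6 CPM in mgR cells (1029 UMIs), a ratio of 0.402 (0.351 to 0.461). Il1rn had 282 CPM in WT cells (400 UMIs) against 122 CPM in mgR cells (1632 UMIs), a ratio of 0.430 (0.386 to 0.481). Over all macrophages the antagonist and its ligands were lower by similar factors: there were 13.2 Il1rn UMIs per 100 UMIs of Il1a and Il1b in WT macrophages and 14.0 in mgR macrophages, a ratio of 1.06 (0.940 to 1.19). This did not hold in each group of macrophages defined below: the ratio was 1.87 (1.47 to 2.40) with Xist UMIs alone, 0.797 (0.667 to 0.954) with Y-linked UMIs alone and 0.40 (0.308 to 0.519) in the Lyve1 group, where Il1rn was 106 and 42.4 UMIs per 100 ligand UMIs. The decoy receptor Il1r2 was close to the limit of detection, with 11 WT and 150 mgR UMIs and a ratio of 1.44 (0.781 to 2.94). That ratio was within counting error, and 10 mgR cells held 54.0% of the mgR UMIs. Per 100 ligand UMIs Il1r2 was 0.364 in WT and 1.29 in mgR macrophages, a ratio of 3.53 (1.92 to 7.24). The lower ligand UMIs of mgR macrophages enter this ratio, so it does not show a higher Il1r2 level. Ptgs2 had 154 CPM in WT cells (218 UMIs) against 62.0 CPM in mgR cells (832 UMIs), a ratio of 0.403 (0.346 to 0.470).

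Several measures moved with these ratios, and their part in the results was not tested. The median gene of mgR macrophages lay at a log2 ratio of 0.13, and relative to it the 6 lower genes had ratios between 0.331 and 0.582 and Tnf reached 0.663. Relative to that gene 7 of the 9 were at least 1.5-fold lower, against 13.1% of all genes. The summed level of 6 dendritic markers in macrophages was 4818 CPM in the WT and 2599 CPM in the mgR library, and that of 6 mature dendritic markers 568 and 180 CPM, with all 6 of each list present in both libraries. The first list includes H2-Ab1, which was at 2100 and 1921 CPM in cells outside the dendritic class. That sum therefore does not measure dendritic RNA alone, and it was not split by gene. A few WT cells held much of the RNA: 10 of 222 WT macrophages held 41.4% of Il1b and 57.4% of Il10 UMIs, and 10 of 1537 mgR macrophages 19.3% and 21.8%. Leaving out these 10 cells per library, which is 4.50% of WT and 0.651% of mgR macrophages, brought the ratio to 0.540 for Il1b, 0.519 for Il1a, 0.648 for Il1rn, 0.614 for Ptgs2 and 0.695 for Il10, the last short of 1.5-fold.

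The ratios were then taken within cells of each kind. In macrophages with Xist UMIs alone (77 WT and 1039 mgR cells) and with Y-linked UMIs alone (87 and 294 cells), Il1b had ratios of 0.389 and 0.464, Il1a of 0.300 and 0.406, Ptgs2 of 0.358 and 0.478, and Tnf of 0.712 and 0.655. For Il10 the ratio was 0.555 (0.424 to 0.740) with Xist and 0.335 (0.270 to 0.415) with Y-linked UMIs. For Il1rn it was 0.703 (0.559 to 0.895), short of 1.5-fold, and 0.364 (0.308 to 0.431). Il6 had a ratio of 0.375 (0.225 to 0.663) with Xist UMIs and of 0.912 (0.447 to 2.05), within counting error, with Y-linked UMIs. Osm was within counting error in both, at 0.972 and 0.897.

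The kinds of cell also differed inside a library. In the WT library Il1rn was 167 CPM in macrophages with Xist and 381 CPM in those with Y-linked UMIs, a ratio of 2.29 (1.77 to 2.99), and Il10 was 122 and 245 CPM, a ratio of 2.0 (1.47 to 2.76). In the mgR library the same ratios were 1.19 for Il1rn and 1.21 for Il10, and the largest of the 9 was Ptgs2 at 1.65. Macrophages of the same library thus differed by up to 2.29-fold in these genes, and sex and animal cannot be told apart here. Il1a differed little within the WT library (297 and 284 CPM) and Tnf little within either.

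**Figure D3:**
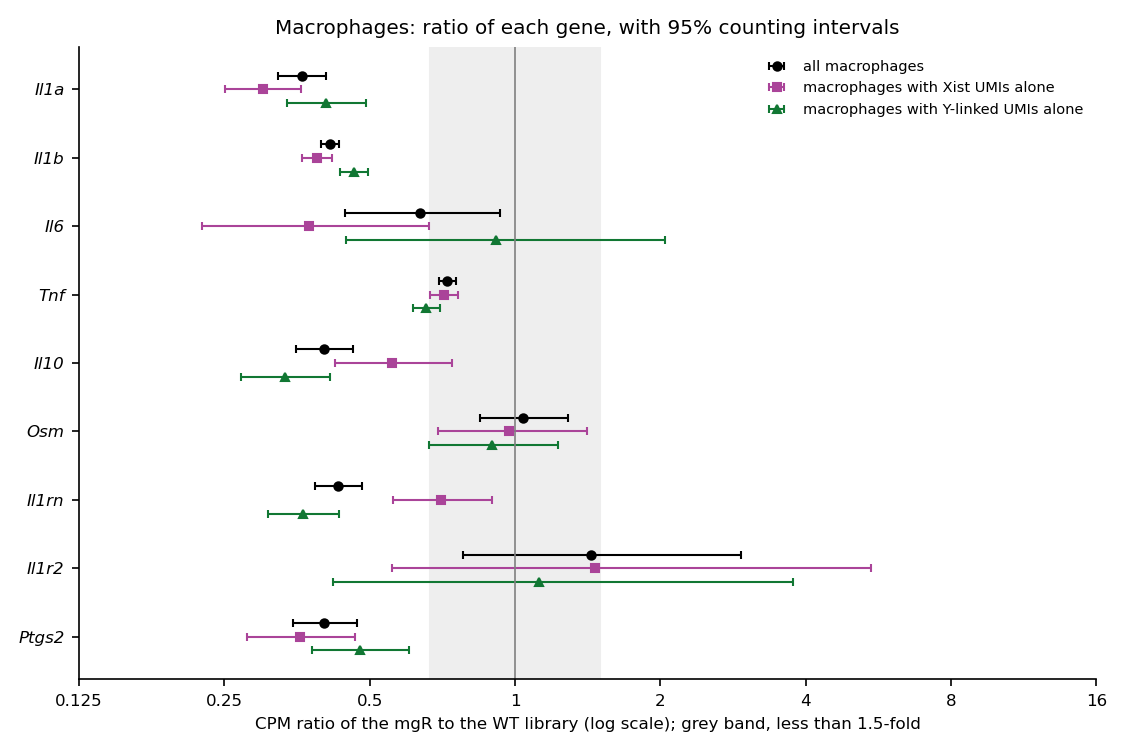
Points give the CPM ratio of the mgR to the WT library (log axis) for each gene in all macrophages, in those with Xist UMIs alone and in those with Y-linked UMIs alone, with 95% counting intervals, and the grey band covers ratios under 1.5-fold. Il1a, Il1b, Il10 and Ptgs2 lie left of the band in all 3 sets, Osm straddles 1 in all 3, and Il1rn lies inside the band for cells with Xist UMIs.

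Macrophages were next divided by marker UMIs, with at least 3 UMIs of Lyve1, Folr2 and Cd163, which mark resident tissue macrophages, or at least 3 of Cx3cr1 and Cd72. The Lyve1 group made up 31.5% (25.5 to 38.1) of WT and 54.7% (52.2 to 57.2) of mgR macrophages, and the Cx3cr1 group 29.7% (23.8 to 36.2) and 18.6% (16.7 to 20.6). Cells with both kinds of marker were 7.21% and 8.85%, and cells with neither 31.5% and 17.8%. These groups are ranges of marker UMIs rather than types: 5 WT and 47 mgR macrophages lay at the Lyve1 threshold, 14 and 119 at the Cx3cr1 threshold.

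Il1b was carried by the Cx3cr1 group and by cells with neither marker. It was 175 and 177 CPM in the Lyve1 group of the WT and mgR libraries, 2820 and 1615 CPM in the Cx3cr1 group, and 3275 and 2405 CPM in cells with neither. The ratio was 1.01 (0.807 to 1.28) in the Lyve1 group, 0.573 (0.539 to 0.609) in the Cx3cr1 group, 0.734 (0.688 to 0.783) in cells with neither and 0.291 (0.207 to 0.416) in cells with both. Only the Lyve1 group, of these 4, showed no difference beyond counting error for Il1b. When mgR macrophages were weighted to the WT mix of the 4 groups, the ratio for Il1b moved from 0.414 to 0.654, against 0.362 to 0.448 for Il1a and 0.430 to 0.484 for Il1rn. The same weighting moved Il1r2 from 1.44 to 2.37.

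Ptgs2, Il10 and Il1rn behaved differently from Il1b. In the Lyve1 group Ptgs2 was 155 and 30.3 CPM, with a ratio of 0.196 (0.149 to 0.259). Il10 there was 262 and 82.7 CPM, with a ratio of 0.316 (0.259 to 0.387), and Il1rn 304 and 105 CPM, with a ratio of 0.347 (0.290 to 0.419). In cells with neither marker Ptgs2 went the other way, from 97.3 to 166 CPM (35 and 313 UMIs), a ratio of 1.70 (1.20 to 2.49). There the Il10 ratio was 0.471 and the Il1rn ratio 0.692. Tnf lay between 0.747 and 0.833 in all 4 groups, and Osm at 1.05 (0.773 to 1.45) in the Lyve1 group, which held 44 of 101 and 740 of 993 Osm UMIs. Stress genes were lower in the mgR library in all 4 groups. They were at 7321 and 4996 CPM in the Lyve1 group and 4697 and 3649 CPM in the Cx3cr1 group. In cells with both they were at 5197 and 3983 CPM, and in cells with neither at 5689 and 4355 CPM. Their part was not tested.

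**Figure D4:**
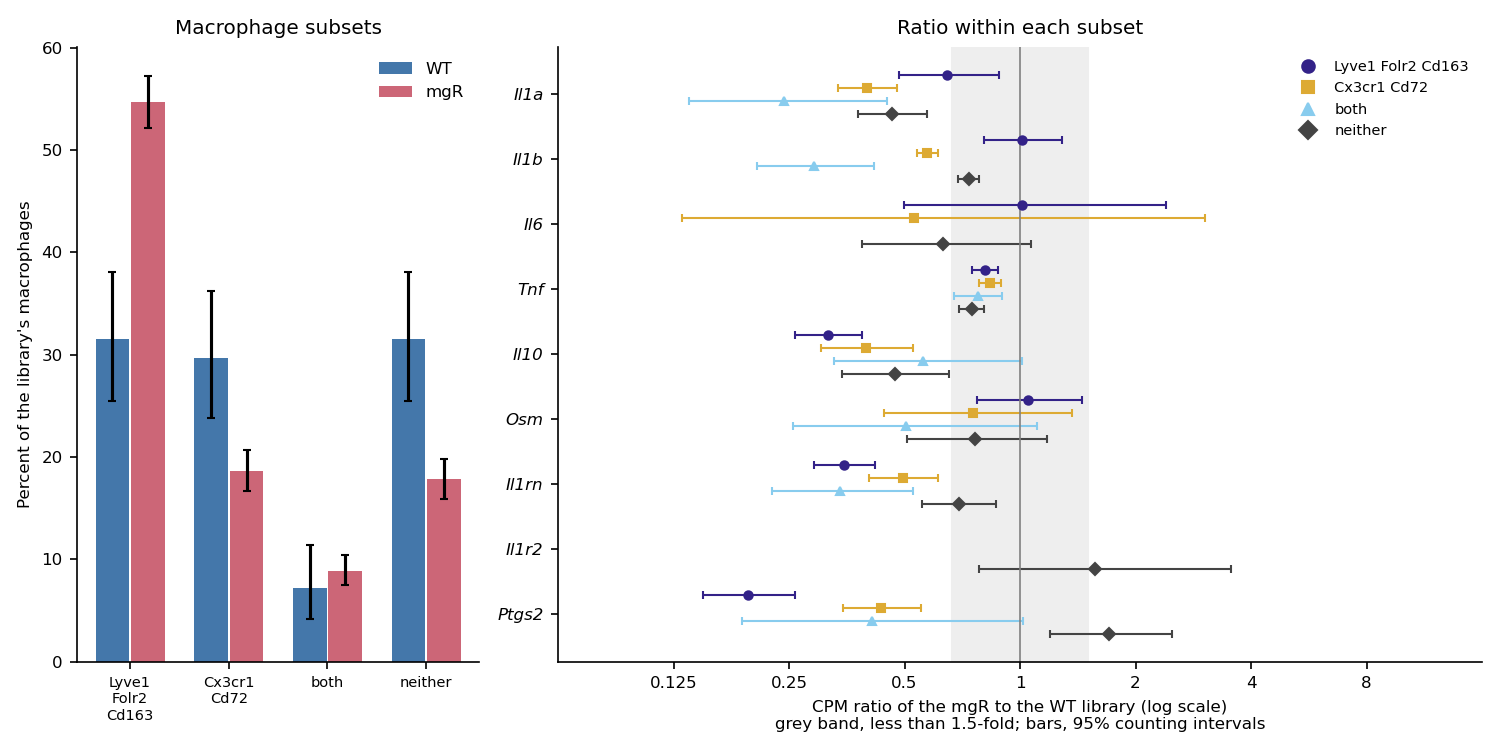
Bars on the left give the percent of macrophages of each library in 4 marker groups with 95% binomial intervals, and points on the right the CPM ratio of mgR to WT of each gene within each group (log axis, 95% counting intervals, groups with under 10 UMIs or under 3 WT UMIs left out). The Lyve1 group sits at 1 for Il1b and at the far left for Ptgs2, where cells with neither marker lie right of the grey band that covers ratios under 1.5-fold.

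To compare the number of cells with a UMI at equal depth, each cell was thinned to 2000 UMIs, which left out 6 WT and 22 mgR macrophages. Il1b was then detected in 46.3% (39.5 to 53.2) of WT and 25.1% (22.9 to 27.3) of mgR macrophages, Tnf in 82.4% (76.7 to 87.2) and 71.2% (68.8 to 73.4), and Il1rn in 24.5% (19.0 to 30.8) and 14.5% (12.8 to 16.4). The shares for Il1a (21.3% and 11.2%), Il10 (15.3% and 8.58%) and Ptgs2 (13.9% and 7.52%) were also smaller in the mgR library, while those for Osm (13.4% and 12.0%), Il6 and Il1r2 did not differ beyond counting error. Fibroblasts, taken as cells that should lack the genes, had at most 1.40% for Il1b, 1.05% for Tnf and 0.525% for Il1rn. For Ptgs2 and Il6 the comparison was T cells, with 5.19% and 1.54% for Ptgs2 and 0% of 77 and 130 cells for Il6, which allows up to 3.90% and 2.31%. The Il6 shares of macrophages (3.24% and 2.38%) lie at or near that limit. Before thinning, WT T cells held 19 Ptgs2 UMIs in 6 cells, with 8 of them in 1 cell. The T cell share for Ptgs2 may thus not be background alone. Without thinning, Il1b was detected in 54.5% and 37% of macrophages, at median depths of 5999 and 8332 UMIs, and in 1.71% and 2.88% of fibroblasts, at 5241 and 6503 UMIs.

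**Figure D5:**
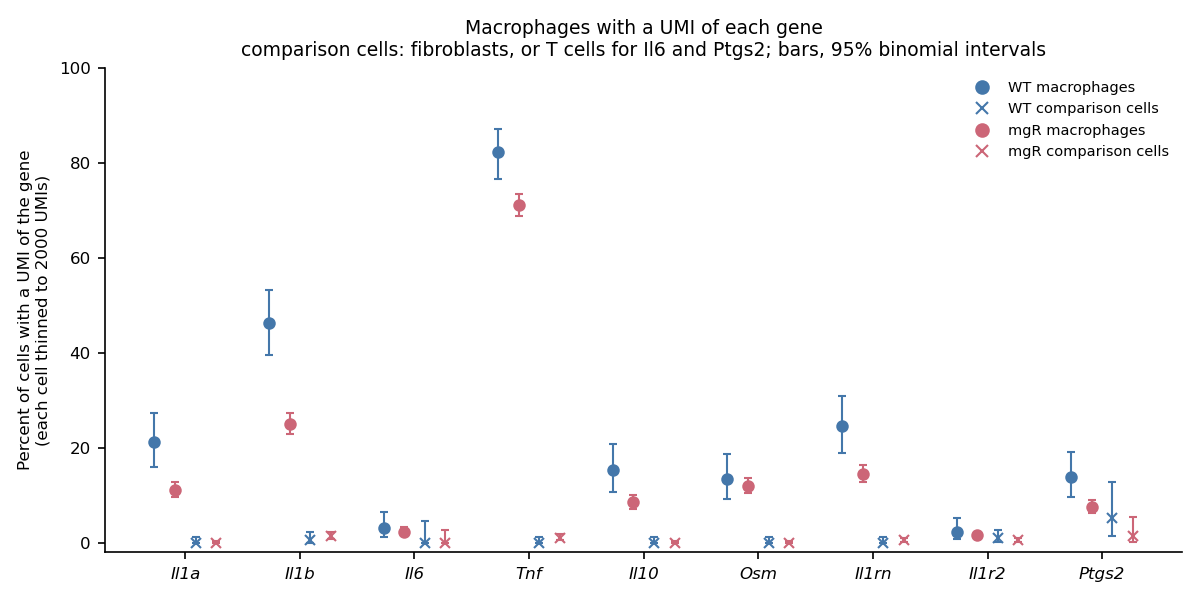
Circles give the percent of macrophages with a UMI of each gene after thinning each cell to 2000 UMIs, and crosses the same in comparison cells (fibroblasts, or T cells for Il6 and Ptgs2), with 95% binomial intervals. The blue WT circles lie above the red mgR circles for Tnf, Il1b, Il1a, Il1rn, Il10 and Ptgs2, and all of these lie above the crosses.

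Some of the genes were found together in the same thinned macrophages more often than the product of their shares gives. In the mgR library Il1b and Ptgs2 were both detected in 69 cells against 28.6 from the product, Il1a and Il1b in 91 against 42.4, Il1b and Il1rn in 89 against 55.2, and Il1b and Il1r2 in 19 against 6.02. In the WT library the same pairs gave 19 against 13.9, 34 against 21.3, 33 against 24.5 and 4 against 2.31. Osm stood apart from Il1b, with 43 cells against 45.7 in the mgR and 10 against 13.4 in the WT library. These counts describe cells of 1 library each.

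Dendritic cells differed from macrophages in that Il1b was at the same level in both libraries. Of the 8 genes with at least 10 UMIs, 1 (Tnf) was at least 1.5-fold higher, against 18.9% of all 6312 genes measured in dendritic cells, and 4 (Il1a, Osm, Il1rn and Ptgs2) at least 1.5-fold lower, against 17.1%. The median log2 ratio was -0.40 over these genes and -0.011 over all. Il1b had 7036 CPM in WT cells (1900 UMIs) against 7061 CPM in mgR cells (5552 UMIs), a ratio of 1.0 (0.952 to 1.06), and 1.02 in both kinds of cell by sex-linked UMIs. Il1r2 had 499.9 CPM in WT cells (135 UMIs) against 473 CPM in mgR cells (372 UMIs), a ratio of 0.946 (0.775 to 1.16). With the decoy at 7.08 and 6.69 UMIs per 100 ligand UMIs, ligands and decoy kept the same proportion in both libraries within counting error (a ratio of 0.944, 0.768 to 1.17). Ptgs2 had 404 CPM in WT cells (109 UMIs) against 261 CPM in mgR cells (205 UMIs), a ratio of 0.646 (0.510 to 0.823), and was detected in 74.2% (55.4 to 88.1) and 46.6% (34.8 to 58.6) of dendritic cells. Within cells of each kind its ratio was 0.695 (0.490 to 1.0) and 0.754 (0.520 to 1.10), and it stayed past 1.5-fold under 4 of 10 alternative settings.

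Over all dendritic cells the ratios of Il1rn, Tnf, Il1a, Osm and Il6 were within counting error. Il1rn had 24 and 43 UMIs with a ratio of 0.615 (0.365 to 1.06), but 17 of the WT UMIs came from a single cell. With Xist UMIs alone the ratio was 2.44 (0.755 to 12.5), and with Y-linked UMIs alone 0.105 (0.0262 to 0.314). Tnf had 6 and 32 UMIs with a ratio of 1.83 (0.755 to 5.36), Il1a 6 and 11 with a ratio of 0.630 (0.213 to 2.07), Osm 6 and 8 with a ratio of 0.458 (0.139 to 1.60), and Il6 5 and 13 with a ratio of 0.893 (0.299 to 3.20). Il10, with 4 and 1 UMIs and a ratio of 0.0859 (0.00174 to 0.868), lay beyond counting error but under the minimum of 10 UMIs for a call.

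Neutrophils showed the opposite direction for Il1b. Of 5 genes with at least 10 UMIs, 3 (Il1b, Tnf and Il1r2) were at least 1.5-fold higher, against 22.0% of 1578 genes measured in neutrophils, and 1 (Ptgs2) lower, against 24.5%. The median log2 ratio was 0.75 over these genes and -0.051 over all. Il1b had 2948 CPM in WT cells (132 UMIs) against 7340 CPM in mgR cells (599 UMIs), a ratio of 2.49 (2.06 to 3.03), and was detected in 17 of 17 and 36 of 38 cells. The WT neutrophils held no cell with Xist UMIs alone, and in the 5 WT and 8 mgR cells with Y-linked UMIs alone the Il1b ratio was 2.28 (1.71 to 3.06). Il1r2 had 603 CPM in WT cells (27 UMIs) against 1017 CPM in mgR cells (83 UMIs), a ratio of 1.69 (1.08 to 2.71), and Tnf 4 and 23 UMIs, a ratio of 3.16 (1.08 to 12.6). Leaving out the 10 cells of each library with most UMIs of the gene, which is 58.8% of WT and 26.3% of mgR neutrophils, moved the ratio to 3.92 for Il1b and 3.35 for Il1r2. Macrophage markers in neutrophils summed to 4578 CPM in the WT library (3 of 8 genes present) and 6421 CPM in the mgR library (8 of 8). The 8 include the myeloid gene Lyz2, so the sum does not measure macrophage RNA alone. It was not split by gene, and its part was not tested. In the neutrophils with Y-linked UMIs alone the Il1r2 ratio was 1.09 (0.333 to 3.83) and the Tnf ratio 1.44 (0.365 to 6.69). Il1rn had 12 and 29 UMIs with a ratio of 1.33 (0.656 to 2.85), and Ptgs2 9 and 8 with a ratio of 0.488 (0.164 to 1.42), both within counting error. In neutrophils Il1a and Il10 were at 0 in both libraries, which allows up to 67.0 and 36.8 CPM. Il6 had 0 and 1 UMIs and Osm 0 and 2.

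Smaller myeloid groups were taken from cells that met none of the 4 rules. Cells with at least 5 UMIs of Ly6c2, Plac8 and Chil3, monocyte markers, were 5 in the WT and 39 in the mgR library, with Il1b at 4870 and 4243 CPM, a ratio of 0.871 (0.698 to 1.10). Il1rn had 0 WT UMIs there and 94 in the mgR library (323 CPM), and Osm 0 and 36. Cells with Ccr7, Fscn1 and Ccl22, which mark mature dendritic cells, were 7 and 29, with Il1b at 5555 and 3549 CPM, a ratio of 0.639 (0.563 to 0.727), and in 7 of 7 and 15 of 29 cells. With so few WT cells these values describe single cells more than the library.

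In fibroblasts Ptgs2 and Il6 did not differ beyond counting error, and Il1b was higher in the mgR library from few cells. Of 6 genes with at least 10 UMIs, 3 (Il1b, Tnf and Il1rn) were at least 1.5-fold higher in the mgR library, against 13.8% of 13213 genes measured in fibroblasts, and 0 were lower, against 11.4%. The median log2 ratio was 0.72 over these 6 genes and -0.014 over all. Ptgs2 had 117 CPM in WT cells (217 UMIs) against 132 CPM in mgR cells (1084 UMIs), a ratio of 1.12 (0.971 to 1.31), and after thinning it was detected in 12.8% (9.35 to 17.0) and 13.7% (11.8 to 15.9) of cells. Without the cells that also met the endothelial rule the Ptgs2 ratio was 1.05, and within cells of each kind it was 1.11 (0.859 to 1.47) and 1.24 (0.994 to 1.55). The Ptgs2 ratio was thus 0.403 in macrophages and 1.12 in fibroblasts, and the difference between them was not tested.

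Stress gene UMIs were higher in fibroblasts with a Ptgs2 UMI. Fibroblasts with a Ptgs2 UMI had a median of 17 stress gene UMIs per 2000 in the WT and 19 in the mgR library, and those without had 8 and 9. In macrophages the medians with and without Ptgs2 were 11 and 10 in the WT and 9 and 8 in the mgR library. The digestion that released the cells preceded capture, and its part in the Ptgs2 level was not tested. Il6 was 24.9 CPM (46 UMIs) and 20.7 CPM (170 UMIs), a ratio of 0.832 (0.597 to 1.18), and 1.01 without the cells that met the endothelial rule. By kind of cell it was 10.9 (1.91 to 432), from 1 WT UMI, and 0.818 (0.524 to 1.30), and 10 WT cells held 89.1% of the Il6 UMIs. Without the 10 cells of each library with most Il6 UMIs, 5 WT and 81 mgR UMIs were left and the ratio was 3.62. That step took 10 of the 15 WT but 10 of the 56 mgR fibroblasts with an Il6 UMI. Being unequal, it cannot decide the direction. Over 10 alternatives the Il6 ratio ran from 0.340 to 3.62, with 3 of them past 1.5-fold. The ratio over all fibroblasts was within counting error, so the direction of Il6 was not settled. After thinning, Il6 and Ptgs2 were both detected in 6 of 320 WT fibroblasts against 1.15 from the product of their shares, and in 8 of 1143 mgR fibroblasts against 3.30.

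The higher Il1b of the fibroblast class rested on few cells. There were 6 UMIs in the WT library, no more than 1 in a cell, and 272 in mgR cells, which gives a ratio of 10.2 (4.63 to 28.1). With Xist UMIs alone the ratio was 2.97 (0.983 to 14.6), within counting error, from 3 and 91 UMIs. With Y-linked UMIs alone it was 28.9 (7.83 to 241), from 2 and 122 UMIs. In the mgR library 3 cells held 75, 74 and 54 of these UMIs and all others together 69. The first and the third also held 11 and 5 UMIs of the leukocyte gene Ptprc and 40 and 58 of the myeloid gene Lyz2, and the second held 1 and 0, with 263 UMIs of the fibroblast markers. Without the cells that met the endothelial rule there were 117 mgR UMIs and a ratio of 5.31. Macrophage markers summed to 40.5 CPM in WT and 214 CPM in mgR fibroblasts, with 7 and 8 of 8 genes present, and endothelial markers to 241 and 825 CPM with 6 of 6, and their part was not tested. Tnf (3 and 32 UMIs), Il1rn (1 and 18), Il1r2 (7 and 34), Osm (0 and 6), Il1a (1 and 4) and Il10 (1 and 0) were near the limit of detection, and the ratio was 2.40 (0.751 to 12.3) for Tnf, 4.05 (0.640 to 169) for Il1rn and 1.09 (0.477 to 2.92) for Il1r2, each within counting error.

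The 61 further genes of these pathways were described by role in macrophages. Of 56 with at least 10 UMIs, 3 were at least 1.5-fold higher, against 17.3% of all genes measured in macrophages, and 9 lower, against 9.69%, with a median log2 ratio of -0.15 against 0.098 over all genes. Relative to the median gene the counts were 3 higher, against 13.2% of all genes, and 17 lower, against 13.1%. The counts by role that follow use class totals and were not made relative to the median gene. By class totals none of 14 signal transducers, from Myd88 and the Irak genes to Nfkb1 and Stat3, reached 1.5-fold. The lowest of them were Myd88 (0.671) and Irak2 (0.710). Of 11 genes of NF-kB and cytokine feedback 2 were lower: Tnfaip3, which encodes the NF-kB inhibitor A20, with 412 and 196 CPM (ratio 0.475, 0.434 to 0.520), and Dusp1, a phosphatase of MAP kinases, with 618 and 376 CPM (0.608, 0.565 to 0.654). Among receptors, the TNF receptor gene Tnfrsf1b had a ratio of 0.565 (0.499 to 0.641), the interleukin-10 receptor gene Il10ra of 0.608 (0.50 to 0.743), and Il1rap, the interleukin-1 co-receptor, of 1.88 (0.836 to 5.24) from 6 and 107 UMIs.

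Of 4 measured ligands of the same families 2 were lower, Tnfsf9 at a ratio of 0.604 (0.548 to 0.668) and Clcf1 at 0.233 (0.141 to 0.395), from 24 and 53 UMIs. The other 2 were not past 1.5-fold, Il18 at 1.21 (0.877 to 1.72) and Lif with 0 and 15 UMIs. Among 7 genes of interleukin-1 maturation, Nlrp1b was lower (0.374, 0.188 to 0.810) and Il18bp, which encodes the soluble antagonist of interleukin-18, higher (2.19, 1.03 to 5.53), while the other 5 genes stayed within 1.5-fold, from Nlrp3 at 0.669 to Gsdmd at 1.20. Of 9 measured prostaglandin genes 2 were lower, among them the prostaglandin E2 receptor gene Ptger4 at 0.561 (0.457 to 0.693). In fibroblasts 3 of 55 such genes were higher, against 13.8% of all genes, and 5 lower, against 11.4%, so neither count exceeded the share over all genes. The median log2 ratio was -0.11 against -0.014 over all genes. Relative to the median gene 5 were higher and 5 lower, against 14.1% and 11.0% of all genes. There Ptgs1, the constitutive cyclooxygenase, went from 29.2 to 91.5 CPM (ratio 3.13, 2.38 to 4.21), the interleukin-6 family ligand Il11 from 8 to 147 UMIs (4.14, 2.04 to 9.76), Lif, of the same family, from 19.5 to 7.06 CPM (0.363, 0.235 to 0.566) and Ptger4 from 41.6 to 23.2 CPM (0.558, 0.426 to 0.737). The other named genes lower there were Nfkb2 (0.654, 0.521 to 0.825), Myd88 (0.639, 0.476 to 0.868) and Clcf1. The Clcf1 ratio of 0.645 (0.351 to 1.25), from 15 and 43 UMIs, was within counting error. These fibroblast ratios include the 21 WT and 277 mgR cells that also met the endothelial rule. They were not taken again without those cells, and the part of that mix was not tested.

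Likeness of pattern was measured as the Pearson correlation of log2 CPM over 15 units of class and library with at least 20 cells, among 9474 genes. It is a description, since the units share their libraries. The genes most like Il1b were Tyrobp (0.97), Spi1 (0.96) and Ncf1 (0.95), and those most like Il10 were Cd163 (0.98), Ifnb1 (0.97) and Tmem171 (0.96). Il1a was closest to Oasl1 (0.95), with Il10 next (0.95) and then Cds1 (0.94), and Tnf to Ccl4 (0.95), Cxcl3 (0.94) and C1qc (0.93). Il1rn was closest to Ptafr (0.97), Lilrb4a (0.96) and Clec4n (0.95), and Osm to Cybb (0.94), Pou2f2 (0.93) and Il1rn (0.93). Il1r2 was closest to Mcemp1 (0.97), Themis2 (0.95) and D930030I03Rik (0.93). Il6 and Ptgs2 had no near match, with Plcl1 (0.82), Cnpy3 (0.81) and Ccrl2 (0.81) for Il6 and Srxn1 (0.81) and Gla (0.77) for Ptgs2.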

How the data were processed

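Single-cell RNA-Seq (10x Genomics 3′ v3) of mitral valves was deposited as 1 count matrix per genotype. Per the labels and the submitters' processing notes, the authors made these raw UMI counts with Cell Ranger 7.1.0 on mm10. The methods name the annotation no further than that, and it is not given in the sources used here.

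Cells with 200 to 5000 genes and at most 10% mitochondrial UMIs were kept. The WT matrix held 1104 barcodes and 5381844 UMIs, of which 875 barcodes were kept, and the mgR matrix 3802 barcodes and 28215539 UMIs, of which 3438 were kept. Scrublet in scanpy 1.11.5 marked 9 WT (1.03%) and 52 mgR cells (1.51%) as doublets. These cells were kept, and leaving them out was tried as well.

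For each class and library the UMIs were summed and divided by all UMIs of that class (CPM). A ratio of mgR to WT was called past the fold at 1.5 in either direction, for genes with at least 10 UMIs over both libraries. Intervals are exact at 95% (Poisson for sums, Clopper-Pearson for shares, conditional binomial for ratios, scipy 1.17.1), and a count of 0 allows up to 3 counts. UMIs correct for amplification, but the intervals cover counting error only. With 1 library per genotype no test or paired comparison was made, and cells were not used as replicates. The ratio script was tested on simulated data.

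The 9 genes were named in every class. Of the list of 61 pathway genes, those with at least 50 UMIs and a ratio of at least 1.5 in either direction were named, at most 10 per class, besides Il18, Lif, Nlrp3 and Gsdmd in macrophages, named after their values were seen. The genes, lists, class rules and thresholds were chosen with earlier results of these data known. Likeness used log2(CPM + 10) of genes with at least 200 UMIs. The 3 most alike genes were named per member, except 1 for Ptgs2 that is not reported here. Gene positions are from GENCODE M21, and promoters from RefSeq. Python 3.11.15, numpy 2.4.6 and matplotlib 3.10.9 were used. The alternatives were class scales from median gene ratios, per-cell means, thinning, other gene and cell filters, doubled marker thresholds, cells with sex-linked UMIs of 1 kind, and leaving out the 10 cells with most UMIs of a gene.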

Additional observations from a re-analysis of the deposited data

Results flagged for a closer look

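Il1b differed in direction between cell classes. Its CPM ratio of mgR to WT was 0.414 in macrophages, 2.49 in neutrophils and 10.2 in fibroblasts, where 3 mgR cells held most of the UMIs. Ptgs2 had a ratio of 1.70 in macrophages with neither the Lyve1 nor the Cx3cr1 group of markers, against 0.196 in the Lyve1 group, 0.435 in the Cx3cr1 group and 0.410 in cells with both. With 1 library per genotype these differences were not tested.

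Barcodes outside the cell filters (229 WT and 364 mgR) entered none of the comparisons. There Il1b had 1 WT UMI and 89 mgR UMIs (57.9 CPM in the mgR library), and Il1r2 had 0 and 22 (14.3 CPM). Tnf had 22 and 86 UMIs, at 27.4 and 56.0 CPM, a ratio of 2.05 (1.27 to 3.43). Ptgs2 had 8 and 100 UMIs, at 9.95 and 65.1 CPM, a ratio of 6.54 (3.19 to 15.6), while Il6 had 12 and 2.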

How the results depend on the processing

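No paired analysis was possible because each genotype had 1 library. Values are log2 CPM ratios of mgR to WT in macrophages unless another class is named. The mean of per-cell CPM gave -1.25 for Il1a, -1.14 for Il1b, -0.31 for Tnf, -1.01 for Il10, -1.04 for Il1rn and -1.02 for Ptgs2. Cells with Xist UMIs alone gave -1.74 for Il1a, -1.36 for Il1b, -1.42 for Il6, -0.85 for Il10 and -0.51 for Il1rn. Cells with Y-linked UMIs alone gave -1.30 for Il1a, -1.11 for Il1b, -0.61 for Tnf, -1.58 for Il10, -1.46 for Il1rn and -1.07 for Ptgs2. Without the 10 cells holding most UMIs of the gene the values were -0.95 for Il1a, -0.89 for Il1b, 0.96 for Il6 (from -0.65), -0.27 for Tnf, -0.53 for Il10, 0.51 for Osm, -0.63 for Il1rn and -0.70 for Ptgs2. These 10 cells were 4.50% of WT but 0.651% of mgR macrophages, so this setting took a larger part of the WT library. In the WT mix of marker groups, an alternative chosen after seeing the data, they were -1.16 for Il1a, -0.61 for Il1b, -0.33 for Tnf, -1.05 for Il1rn and -0.84 for Ptgs2. The scale from the median of gene ratios gave -1.40 for Il1b and -0.59 for Tnf, and 20 pathway genes past 1.5-fold in place of 12. Thinning to 2000 UMIs gave -1.09 for Il1b, -1.05 for Il10 and -1.0 for Ptgs2, and taking all cells that meet a class rule -1.20 for Il1b.

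In dendritic cells Il1a turned from -0.67 to 0.15 with all cells that meet a rule, and Il1rn from -0.70 to 1.29 in cells with Xist UMIs alone. In fibroblasts 3 members were past 1.5-fold, against 5 with per-cell means or all cells that meet a rule, and 1 without the 10 top cells or among genes with at least 50 UMIs. Il1a, Il1b and Ptgs2 in macrophages stayed at least 1.5-fold lower under all 11 alternatives run and Il10 and Il1rn under 10, and Tnf reached this under 2. Il6 was past 1.5-fold under 8 alternatives, but 1 of these was the ratio of 1.94, which is higher rather than lower. Over all alternatives, 62 macrophage values stayed within their counting interval, 35 moved beyond it and 1 that was past 1.5-fold changed direction, and the counts were 36, 9 and 0 in fibroblasts, 56, 8 and 2 in dendritic cells, and 35, 4 and 0 in neutrophils. Counting also values within 1.5-fold, 7 of 98 macrophage, 5 of 45 fibroblast, 10 of 66 dendritic and 2 of 39 neutrophil values fell on the other side of a ratio of 1, among them Il6 in fibroblasts (1.86 without the 10 top cells, from -0.27) and Il1r2 in fibroblasts (-1.25 thinned, from 0.13). An alternative that left under 3 UMIs in a library gave no value. Beyond the moves named above, the causes were not tested. The WT library, with fewer cells, sets the width of most intervals, and differences between animals cannot be told apart from those between genotypes.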

Other observations

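Some values fell outside the 4 main classes. In cells with Xcr1 or Clec9a UMIs, which mark type 1 dendritic cells (7 WT and 43 mgR cells), Il1b was 719.7 CPM in WT and 1381 CPM in mgR cells, with a ratio of 1.92 (1.46 to 2.57). In mature dendritic cells Il1rn had 1 and 35 UMIs, a ratio of 6.83 (1.15 to 277), and Il1r2 17 and 50, a ratio of 0.574. Endothelial cells outside the fibroblast class (20 and 123) held 2 and 64 Ptgs2 UMIs, a ratio of 4.35 (1.16 to 36.7), and T cells (82 and 132) held 19 and 13, a ratio of 0.332. These rest on few WT cells. In endothelial cells 34 of the mgR Ptgs2 UMIs came from 1 cell, and without it, an alternative chosen after seeing the data, the ratio was 2.06 (0.522 to 17.8).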
